A study of Mus musculus with 11 samples.

Results

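Bc1, a short RNA made by RNA polymerase III, and 7 long noncoding RNAs (H19, Malat1, Neat1, Meg3, Kcnq1ot1, Gas5 and Snhg1) were followed in the apex of the mouse heart after proton irradiation. They are 8 of the 55414 genes counted in each library, chosen by name, and the set was drawn up because the level of Bc1 was much higher after irradiation. That difference from unirradiated hearts is therefore described here without a test, while the other 7 genes and the direct comparison of the irradiated groups were tested. The data are bulk poly(A)-selected, directional RNA-seq libraries from the heart apex of C57BL/6 mice, a common inbred laboratory strain. Of these, 4 came from unirradiated hearts (NR, replicates 1 to 4), 4 from hearts given standard proton radiotherapy (S-PRT, replicates 1 to 4), and 3 from hearts given FLASH proton radiotherapy, in which the dose is delivered at an ultra-high rate (F-PRT, replicates 2 to 4). Both irradiated groups received 40 Gy as a single dose aimed at the apex, and tissue was analysed 2 weeks later, so each library represents 1 dose and 1 time. The labels give no ages, and they do not say that each library came from a separate animal, so the spread between libraries may be partly technical. Between 20758170 and 40136578 expected counts were assigned to genes per library, and all 8 genes were among the 14556 that passed the filter on low counts.

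Bc1 is a rodent RNA that arose from a transfer RNA and is best known from neurons, where it lies in dendrites and restrains translation through proteins such as poly(A)-binding protein and the helicase eIF4A. Malat1 and Neat1 are abundant nuclear RNAs: Malat1 accumulates in nuclear speckles, where splicing factors gather, and Neat1 is the scaffold of paraspeckles. H19, Meg3 and Kcnq1ot1 are imprinted, that is, made from the copy inherited from 1 parent, and each lies in a cluster of imprinted genes. Gas5 and Snhg1 are spliced host genes whose introns carry small nucleolar RNAs (snoRNAs), which guide the chemical modification of ribosomal RNA. The spliced host RNAs of this kind are short-lived, because they are translated and then removed by nonsense-mediated decay.

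The Bc1 transcript is printed whole because its length and its sequence both bear on how it is counted in such a library. It has 168 bases, of which 70 (41.7%) are adenines. The sequence is that of the GENCODE M21 transcript (mouse build GRCm38) matched by gene identifier, and its length equals the deposited one. Capitals mark in turn a match to the internal A box of RNA polymerase III genes (bases 14 to 24), a match to the B box (bases 57 to 66) and the longest run of adenines (23 bases, 77 to 99).

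Bc1: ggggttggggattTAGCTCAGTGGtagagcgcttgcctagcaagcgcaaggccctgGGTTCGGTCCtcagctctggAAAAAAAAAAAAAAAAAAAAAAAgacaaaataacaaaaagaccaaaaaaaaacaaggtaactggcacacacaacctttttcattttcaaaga

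Both boxes were searched by their known consensus on the transcript strand, and the 3 marked stretches do not overlap. Among the 10765 annotated transcripts of up to 300 bases, 7.52% held the A box, 0.492% held the B box, and 6 (0.0557%) held both. A run of adenines as long as that of Bc1 was present in 4 of these short transcripts (0.0372%) and in 619 of all 141767 annotated transcripts (0.437%). The run lies inside the RNA rather than at its 3′ end. Whether the selection on poly(A) caught Bc1 through it was not tested.

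The start regions of the snoRNA hosts are printed because such genes are known for a tract of pyrimidines (C and T) at the start of the transcript, the element through which translation of ribosomal protein mRNAs follows growth signals. Each window holds 50 bases before and 50 after an annotated start, from RefSeq on build GRCm38.p6, plus strand. Capitals mark the longest run of C and T that reaches within 10 bases of the start, and the run is marked and measured whole.

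Gas5, chr1:161034551-161034650: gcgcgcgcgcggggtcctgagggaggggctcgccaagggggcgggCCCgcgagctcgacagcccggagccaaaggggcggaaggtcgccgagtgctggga

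Gas5, chr1:161035116-161035215: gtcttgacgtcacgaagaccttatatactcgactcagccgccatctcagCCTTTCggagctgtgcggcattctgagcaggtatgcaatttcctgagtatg

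Snhg1, chr19:8723437-8723536: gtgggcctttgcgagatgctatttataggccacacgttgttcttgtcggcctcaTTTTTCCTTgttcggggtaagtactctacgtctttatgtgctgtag

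The run was 9 bases long in the Snhg1 window, where it lies after the annotated start rather than at it. Of all 32851 windows, 9.55% had 1 at least as long. It was 6 bases long at the second Gas5 start, a length reached by 29.2% of windows, and 3 bases long at the first, reached by 82.9%. The median over all windows was 4 bases. RefSeq's table held 6 of the 8 genes, and H19 and Neat1 were not among them.

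Bc1 was higher in every irradiated library than in any unirradiated one. Values are given in replicate order throughout. In NR it stood at 5.91, 4.19, 5.51 and 4.75 CPM (counts scaled to a library of 1000000, with libraries made comparable by the trimmed mean of M-values). In S-PRT it stood at 36.6, 29.2, 25.3 and 14.8 CPM. In F-PRT it stood at 27.2, 19.2 and 20.3 CPM. The lowest irradiated library, S-PRT 4, was thus well above the highest unirradiated library, and the F-PRT values lay inside the S-PRT range. Behind these levels were 112 to 214 expected counts in the NR libraries, 602 to 853 in the S-PRT libraries and 346 to 716 in the F-PRT libraries, all of them whole numbers. Group means were 5.09 ± 0.771 CPM (SD, n = 4) for NR, 26.5 ± 9.06 CPM (SD, n = 4) for S-PRT and 22.2 ± 4.33 CPM (SD, n = 3) for F-PRT. The ratio of means was 5.2 for S-PRT and 4.37 for F-PRT against NR. The fitted log2 fold changes were 2.37 ± 0.24 (SE) and 2.13 ± 0.25 (SE), and these are the values for which Bc1 was chosen. In bulk tissue, more cells that contain Bc1 and more Bc1 per cell cannot be told apart.

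**Figure D1:**
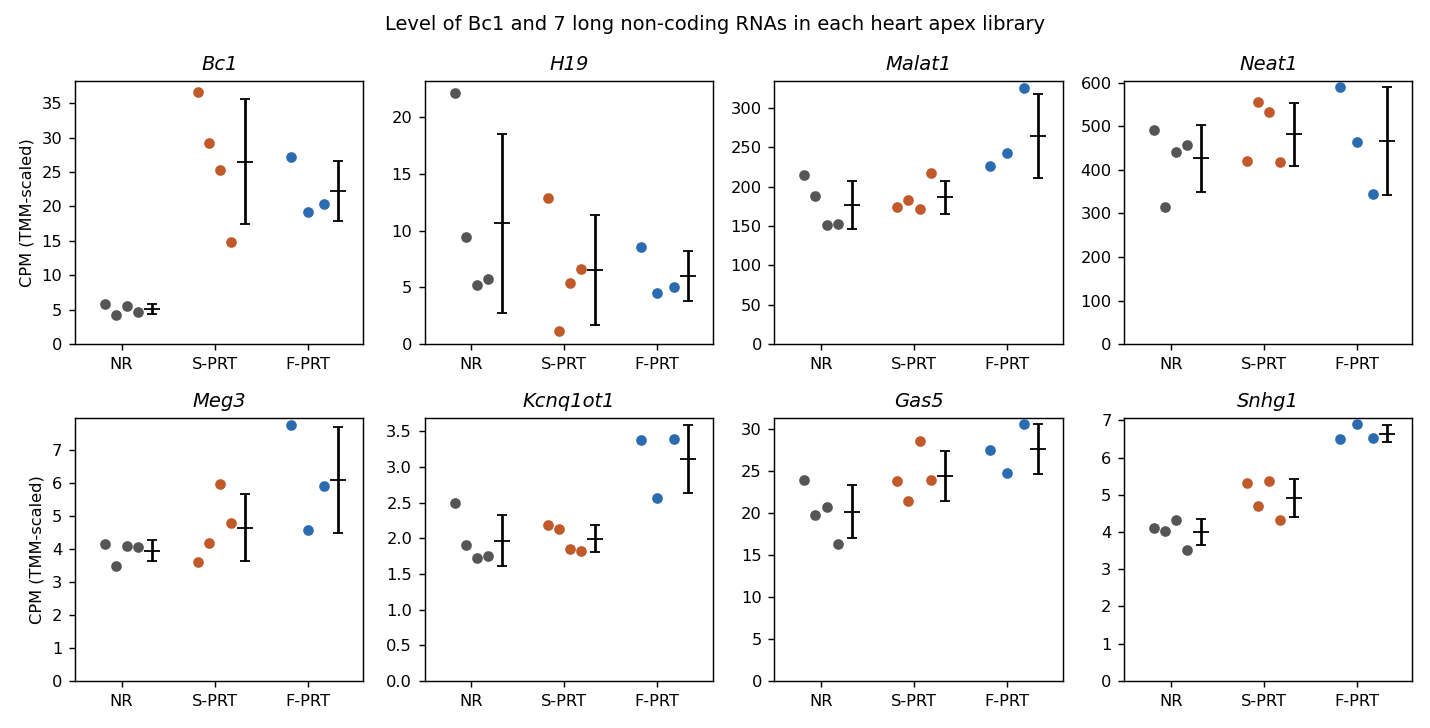
Level of each of the 8 genes in CPM (vertical axes, each starting at 0) in the NR, S-PRT and F-PRT libraries; points are libraries and the bar beside them is the mean ± SD. The 7 irradiated libraries lie between 14.8 and 36.6 CPM for Bc1, above all 4 NR libraries, and for Snhg1 the 3 F-PRT libraries lie between 6.5 and 6.9 CPM, above all others.

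Bc1 did not differ between the irradiated groups beyond the spread of libraries. F-PRT was lower than S-PRT by a log2 fold change of -0.24 ± 0.24 (SE), with an adjusted p of 0.64 in edgeR's quasi-likelihood test. The ranges overlapped, and 1 of the 3 F-PRT libraries was above the S-PRT mean. The spread within S-PRT (coefficient of variation 34.2%) was wider than that within NR (15.1%).

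Bc1 is shorter than the typical sequenced fragment, so few of its positions could give a fragment. The mean fragment length of a library, read from the deposited lengths of 1501 genes of at least 5000 bases, was 226.8 to 233.9 bases in NR, 200.4 to 235.8 bases in S-PRT and 208.0 to 222.7 bases in F-PRT. All 3 F-PRT libraries were below all 4 NR libraries (exact two-sided permutation test, p = 0.029, the smallest these group sizes allow, and 0.26 after adjustment over the 9 library comparisons of this kind), while S-PRT overlapped NR (exact p = 0.14, adjusted p = 0.31). The effective length of Bc1, the number of start positions the counting program allows it, was 6.03, 7.04, 5.51 and 5.6 bases in the NR libraries. The S-PRT libraries had 8.06, 6.54, 9.05 and 11.2 bases, and the F-PRT libraries had 6.86, 6.49 and 11.2 bases. The libraries with the shortest fragments, S-PRT 4 and F-PRT 4, had the largest effective length and stood at 14.8 and 20.3 CPM of Bc1. S-PRT 2 had the longest fragments, at 235.8 bases, and stood at 29.2 CPM.

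Dividing by so small an effective length makes the deposited TPM of Bc1, a level per length scaled to 1000000 transcripts, large and hard to set beside other genes. Bc1 TPM was 745, 521, 996 and 981 in the NR libraries, 3298, 3212, 2388 and 1303 after S-PRT, and 4070, 2180 and 1970 after F-PRT. Both irradiated groups lay wholly above NR on this scale too, though S-PRT 4 came within 1.5 times of the highest NR library. On the log2(TPM + 1) scale the difference from NR was 1.61 for S-PRT and 1.72 for F-PRT. With the trend of counts on gene length removed in each library it was 1.86 and 1.74, and with fragment length as a covariate it was 2.62 and 2.38.

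**Figure D2:**
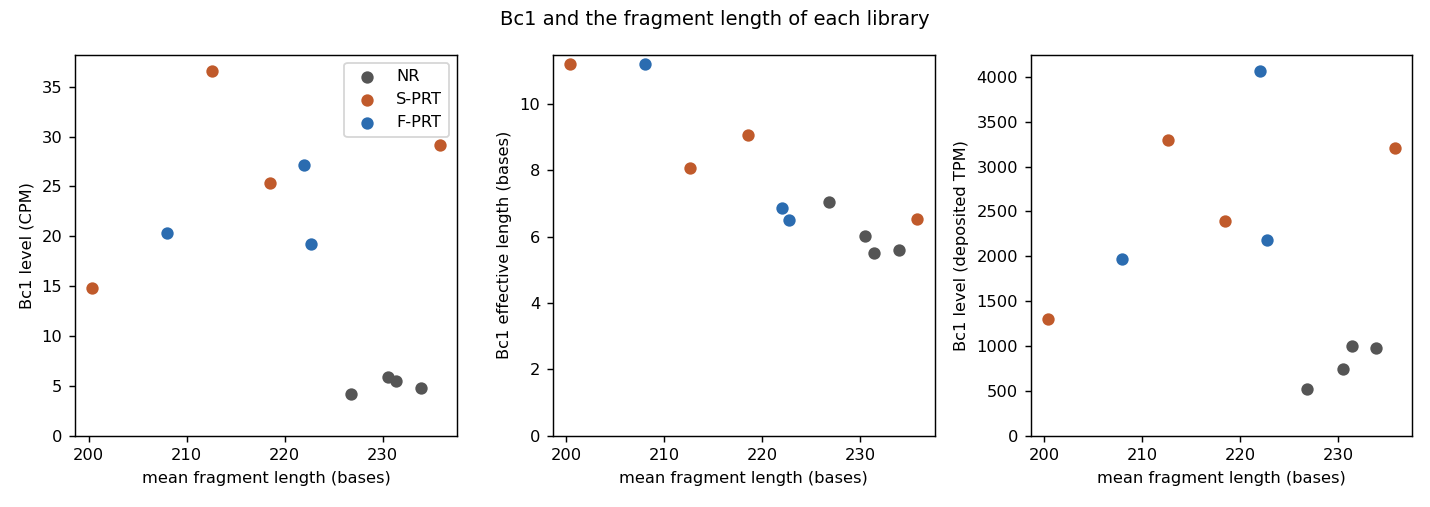
Bc1 in each of the 11 libraries against the mean fragment length of the library in bases (horizontal axes): CPM on the left, effective length in bases in the middle and deposited TPM on the right, coloured by group. S-PRT 4 and F-PRT 4, with the shortest fragments, have the largest effective length at 11.2 bases, and in CPM the irradiated libraries lie between 14.8 and 36.6 and the NR libraries between 4.19 and 5.91.

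Other short genes give the level against which the Bc1 values stand. The median log2 fold change of the 26 tested genes of at most 300 bases, Bc1 included, was 0.47 for S-PRT and 0.33 for F-PRT, against 0.01 and 0.03 over all genes tested, and apart from Bc1 the highest reached 1.44 and 1.36. The median of the 411 genes of at most 600 bases was 0.36 and 0.48. Apart from Bc1 the highest of these reached 7.93 and 8.52, and Bc1 ranked 11 for S-PRT and 17 for F-PRT. Bc1 was chosen for its large difference, so its place among these genes is no test. The part of fragment length in the Bc1 difference was not tested beyond the fits above.

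The other products and the factors of RNA polymerase III give the setting for Bc1. Of 8 further RNA polymerase III transcripts sought, 3 were found, and Rny1 and Rny3, Y RNAs, held 0 to 1 counts in every library. Rpph1, the RNA of ribonuclease P, was the only 1 tested, at 2 to 17 counts per library. Its difference was 0.58 ± 0.43 (SE, edgeR adjusted p = 0.5) for S-PRT and -0.02 ± 0.51 (SE, adjusted p = 0.99) for F-PRT. Of 27 subunits and initiation factors of the polymerase, none passed the test after S-PRT, where 1.29% of all genes tested were called. After F-PRT 2 rose and 4 fell (median log2 fold change 0.10), a share near the 19.5% of all genes called there, and 0 were called with the trend on gene length removed or with scaling by library size alone. Polr1d, a subunit shared with RNA polymerase I, rose by 0.53 ± 0.11 (SE, edgeR adjusted p = 0.011), and Gtf3a, the factor TFIIIA of 5S RNA genes, rose by 0.39 ± 0.10 (SE, adjusted p = 0.022). Bdp1, a TFIIIB subunit, fell by 0.57 and Gtf3c2, a TFIIIC subunit, fell by 0.34 on the log2 scale (edgeR adjusted p = 0.025 and 0.033).

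Proteins reported to bind Bc1 did not pass the test in either comparison (0 of 9, median log2 fold change 0.00 and 0.10). Over all genes, 1.29% were called after S-PRT and 19.5% after F-PRT. The smallest adjusted p values were those of the initiation factor Eif4b after S-PRT (-0.25 ± 0.08 SE, edgeR adjusted p = 0.12) and of the helicase Eif4a1 after F-PRT (0.28 ± 0.10 SE, adjusted p = 0.057). With replicate number as a block in the comparison of S-PRT with NR, a fit that called 9.74% of genes, 1 of the 9 passed: Pabpc1, the poly(A)-binding protein, rose by 0.24 ± 0.06 (SE, edgeR adjusted p = 0.046). The pairing of libraries that this block assumes, here and below, is not certain.

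Since Bc1 is best known from neurons, the markers of neurons were set beside it. The summed level of 12 neuronal markers was 9.8 to 12.2 CPM without irradiation, 11.8 to 15.5 CPM after S-PRT and 13.1 to 19.5 CPM after F-PRT. The largest part of the sum was Uchl1, a neuronal deubiquitinase, at means of 4.67, 6.95 and 8.41 CPM in the 3 groups. Snap25, a synaptic protein, was at 0 counts in all 11 libraries. Enough counts to be tested were present for 5 of the 12 markers, with a median log2 fold change of 0.01 after S-PRT and 0.73 after F-PRT. Of those, none passed after S-PRT (1.29% of all genes called) and 1 rose after F-PRT (19.5% of all genes called). It was Uchl1, by 0.85 ± 0.16 (SE, edgeR adjusted p = 0.0089). The 8 Schwann cell markers summed to 22.1 to 28.8, 21.9 to 26.8 and 22.6 to 25.7 CPM in the 3 groups, and 0 of the 7 tested passed. The 8 macrophage and monocyte markers summed to 95.5 to 165 CPM without irradiation, 154 to 305 CPM after S-PRT and 130 to 235 CPM after F-PRT. Among them Ccr2, the monocyte chemokine receptor, rose by 2.33 ± 0.25 (SE) after S-PRT and by 2.18 ± 0.27 (SE) after F-PRT (edgeR adjusted p = 0.0032 and 0.0024). Only 1 of the 8, Ccr2, was called in each comparison. The log2 fold change was above 0 for 8 of the macrophage and monocyte markers after S-PRT and for 7 after F-PRT. The part of these cells in the Bc1 level was not tested. Cardiomyocyte markers, led by the myosin gene Myh6, fitted the labelled tissue, at 43000 to 52366 CPM in all libraries. Of the 8 markers each, 1 endothelial marker fell after S-PRT (Tek, by 0.97 on the log2 scale), where 1.29% of all genes were called. After F-PRT, where 19.5% of all genes were called, 1 endothelial marker rose and 1 fell. In that comparison 2 fibroblast markers, 1 pericyte and smooth muscle marker and 1 cardiomyocyte marker fell. None of the 5 erythroid markers tested passed. None of the 5 epicardial and mesothelial markers tested passed either, but their median log2 fold change was -2.02 after S-PRT and -0.94 after F-PRT, and their sum was 5.11 to 17.4 CPM in NR and at most 6.99 CPM in the irradiated libraries. Upk3b, a mesothelial membrane protein, was at 2.94 ± 2.85 CPM (SD, n = 4) in NR, 0.295 ± 0.228 CPM (SD, n = 4) in S-PRT and 0.221 ± 0.382 CPM (SD, n = 3) in F-PRT. Its log2 fold change was -3.47 ± 1.03 (SE, edgeR adjusted p = 0.11) and -3.48 ± 1.15 (SE, adjusted p = 0.05, just short of the threshold). The part of these cells in the other differences was not tested.

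Each of the other 7 genes was then compared with NR. After S-PRT none of the 7 passed the test, nor did any have S-PRT libraries wholly outside the NR range, where 1.29% of the 14556 genes tested were called, 7.34% lay wholly above the NR range and 6.71% wholly below it. After F-PRT 5 of the 7 rose (Malat1, Meg3, Kcnq1ot1, Gas5 and Snhg1), where 19.5% of genes were called, 10.8% as higher and 8.67% as lower, and 17.5% of genes lay wholly above the NR range, as did these 5. H19 and Neat1 did not pass. The median log2 fold change of the 7 was 0.17 after S-PRT and 0.58 after F-PRT, against 0.01 and 0.03 over all genes tested. Both comparisons use the same NR libraries. Between the irradiated groups 0 of the 8 genes were called. None of the 14556 genes (0%) passed there in edgeR's test, 2315 of them had an unadjusted p under 0.05, DESeq2's Wald test called 167 and limma-voom 0. Malat1, Kcnq1ot1 and Snhg1 lay wholly above the S-PRT range in F-PRT, as did 5.45% of all genes. Their rise over NR after F-PRT is thus not shown to differ from the change after S-PRT.

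**Figure D3:**
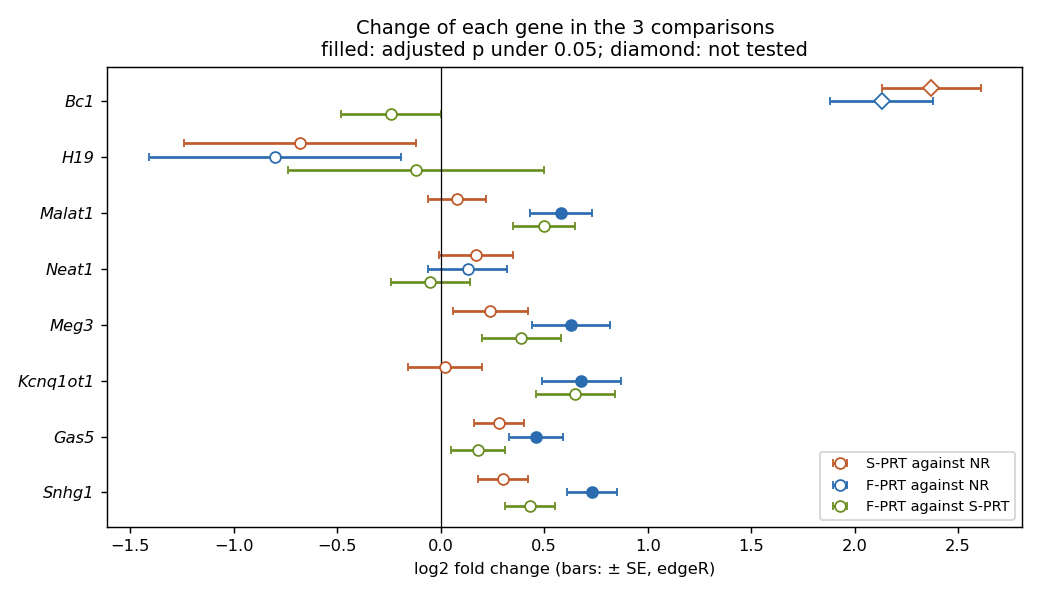
Log2 fold change of each gene (horizontal axis) in the 3 comparisons, with bars for the standard error; filled circles have an adjusted p under 0.05 in edgeR's test, open circles do not, and diamonds mark Bc1 against NR, which was not tested. Filled circles appear only for F-PRT against NR, between 0.46 and 0.73.

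Malat1 stood at 215, 188, 151 and 153 CPM in NR, at 174, 183, 172 and 217 CPM after S-PRT, and at 226, 242 and 325 CPM after F-PRT. The F-PRT libraries were the 3 highest, with F-PRT 4 apart from the others and F-PRT 2 only just above S-PRT 4 and NR 1. Malat1 rose after F-PRT by 0.58 ± 0.15 (SE) on the log2 scale (edgeR adjusted p = 0.022, 3 of 3 libraries above the NR mean). Its difference was 0.08 ± 0.14 (SE, adjusted p = 0.82) after S-PRT and 0.50 ± 0.15 (SE, adjusted p = 0.19) between F-PRT and S-PRT. Without F-PRT 4 the F-PRT difference was 0.41 (adjusted p = 0.093), and without NR 3 or NR 4 it was 0.51 or 0.52 (adjusted p = 0.059 and 0.06). Malat1 had no whole-number count in any library, as the counting program gives when it divides reads between transcripts of different genes, and its level is uncertain to that extent.

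The mean length assigned to Malat1 also moved. The deposited length averages the annotated transcripts of a gene by their estimated share, and Malat1 has 4 of them, of 6983, 656, 556 and 485 bases. It was 4543, 4502, 4310 and 3726 bases in the NR libraries, 3792, 3496, 4303 and 4010 bases after S-PRT, and 2992, 3409 and 2470 bases after F-PRT. The F-PRT libraries were the 3 shortest, and F-PRT 4, which held the highest Malat1, was the shortest of all. Group means were 4270 ± 377 (SD, n = 4), 3900 ± 341 (SD, n = 4) and 2957 ± 471 bases (SD, n = 3). F-PRT against NR had an exact permutation p of 0.029, the smallest possible, and 0.17 after adjustment over the 18 length comparisons of 6 genes. None of the 18 passed after adjustment. Of 12230 genes whose length varied, 1.95% shortened from NR to F-PRT by at least as much as Malat1 (-30.7%), and 9.07% were shorter without overlap. The 656-base and 556-base transcripts run along bases 5721 to 6979 and 5209 to 6982 of the longest, near its 3′ end, and the 485-base transcript along bases 2 to 757. A shift between these transcripts and a shift of reads along the same RNA cannot be told apart in gene tables. Because TPM divides by this length, Malat1 in TPM went from 40.9 ± 6.43 (SD, n = 4) in NR to 98.6 ± 51.9 (SD, n = 3) in F-PRT, a log2(TPM + 1) difference of 1.13 that did not pass (limma adjusted p = 0.094).

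**Figure D4:**
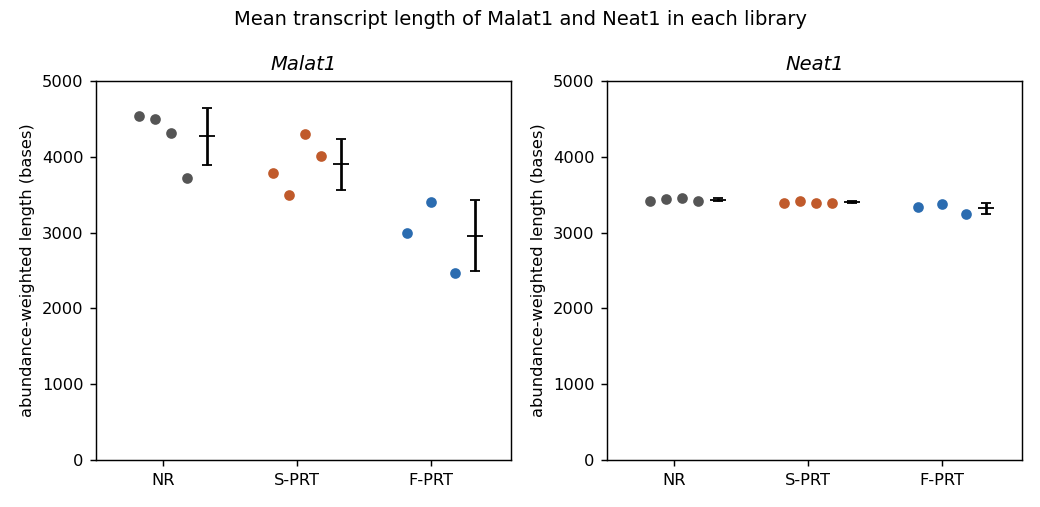
Deposited abundance-weighted length of Malat1 and Neat1 in bases (vertical axes from 0) in each library, by group, with mean ± SD. Malat1 runs from 3726 to 4543 bases in NR and from 2470 to 3409 bases in F-PRT, while Neat1 stays between 3242 and 3459 bases throughout.

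Neat1 was the most abundant of the 8 genes in CPM and did not differ between groups beyond the spread of libraries. It stood at 492, 314, 442 and 457 CPM in NR, at 421, 555, 533 and 417 CPM after S-PRT, and at 590, 464 and 344 CPM after F-PRT. High and low libraries occurred in all 3 groups. The log2 fold change was 0.17 ± 0.18 (SE, edgeR adjusted p = 0.64) after S-PRT and 0.13 ± 0.19 (SE, adjusted p = 0.66) after F-PRT. The mean assigned length of Neat1 was 3435 ± 20.7 bases (SD, n = 4) in NR, 3401 ± 13 bases (SD, n = 4) in S-PRT and 3320 ± 69.4 bases (SD, n = 3) in F-PRT. These values are close to the 3004 bases of the shorter main annotated transcript, which shares the start of the 20771-base form. F-PRT was below both other groups without overlap (exact permutation p = 0.029 each, adjusted p = 0.17). Of the 12230 genes whose length varied, 9.07% were shorter without overlap in F-PRT than in NR, and 5.25% than in S-PRT.

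Genes for partner proteins of these nuclear RNAs were taken from the same fit. Of 12 paraspeckle proteins, none passed the test in either comparison, where 1.29% and 19.5% of all genes were called. Their median log2 fold change was -0.06 after S-PRT and 0.06 after F-PRT. Nono, 1 of them, was at -0.15 ± 0.08 (SE, edgeR adjusted p = 0.17) after F-PRT. Of 13 nuclear speckle proteins none passed after S-PRT (1.29% of all genes), and after F-PRT 1 rose and 2 fell (median -0.04), a share near the 19.5% over all genes. With the length trend removed, with scaling by library size alone or with fragment length as a covariate, 0 of the 13 were called after F-PRT. Luc7l3, a splicing factor, rose by 0.51 ± 0.12 (SE, edgeR adjusted p = 0.014). The matrix proteins Srrm1 and Srrm2 fell by 0.34 and 0.59 on the log2 scale (adjusted p = 0.033 and 0.036), although the Srrm2 difference was above 0 in 2 of 25 other ways of processing the data.

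Of the imprinted RNAs, H19 varied most between libraries of the same group. It stood at 22.1, 9.46, 5.19 and 5.73 CPM in NR, at 12.9, 1.16, 5.41 and 6.61 CPM after S-PRT, and at 8.51, 4.5 and 5.01 CPM after F-PRT. NR 1 was the highest and S-PRT 2, with 24 counts, the lowest, and the groups overlapped widely. The coefficient of variation was 74.2% in NR and 74.4% in S-PRT, the widest of the 8 genes in both groups. The log2 fold change was -0.68 ± 0.56 (SE, edgeR adjusted p = 0.55) after S-PRT and -0.80 ± 0.61 (SE, adjusted p = 0.37) after F-PRT, and without NR 1 these were -0.04 and -0.16.

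Meg3, from the Dlk1 cluster, stood at 4.14, 3.48, 4.09 and 4.06 CPM in NR, at 3.6, 4.17, 5.97 and 4.79 CPM after S-PRT, and at 7.75, 4.56 and 5.9 CPM after F-PRT. The NR libraries lay close together, all F-PRT libraries lay above them, and S-PRT overlapped both. Meg3 rose after F-PRT by 0.63 ± 0.19 (SE, edgeR adjusted p = 0.04), with 0.24 ± 0.18 (SE, adjusted p = 0.52) after S-PRT. The F-PRT call did not pass without any 1 of the NR libraries, S-PRT 4, F-PRT 2 or F-PRT 4 (adjusted p between 0.05 and 0.17), and without F-PRT 2 the difference was 0.42.

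Kcnq1ot1, the long RNA read antisense to the potassium channel gene Kcnq1, was the least abundant. It stood at 2.49, 1.91, 1.72 and 1.75 CPM in NR, at 2.19, 2.13, 1.85 and 1.82 CPM after S-PRT, and at 3.38, 2.56 and 3.4 CPM after F-PRT. F-PRT 3 was only just above NR 1, and the other F-PRT libraries stood clear of all NR and S-PRT libraries. Kcnq1ot1 rose after F-PRT by 0.68 ± 0.19 (SE, edgeR adjusted p = 0.027). Its difference was 0.02 ± 0.18 (SE, adjusted p = 0.97) after S-PRT and 0.65 ± 0.19 (SE, adjusted p = 0.18) between F-PRT and S-PRT. The call did not pass without NR 2, NR 3, NR 4, F-PRT 2 or F-PRT 4 (adjusted p between 0.059 and 0.089). The sources used here do not give the strand setting of the counting, so reads of Kcnq1 and of its antisense partner cannot be told apart among these 44 to 118 counts per library.

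Neighbours of these RNAs were counted in the same fit. Of 7 tested genes of the 3 imprinted clusters none passed after S-PRT (1.29% of all genes), and 1 rose after F-PRT (19.5% of all genes called): Tssc4, a splicing-related protein of the Kcnq1ot1 cluster, by 0.52 ± 0.15 (SE, edgeR adjusted p = 0.028). The median log2 fold change of the 7 was 0.12 after S-PRT and 0.14 after F-PRT. Cdkn1c, a cell cycle inhibitor that Kcnq1ot1 silences on the paternal copy, was at 17.4 ± 1.12 CPM (SD, n = 4) in NR, 6.26 ± 2.8 CPM (SD, n = 4) in S-PRT and 11.6 ± 11 CPM (SD, n = 3) in F-PRT, where it stood at 4.14, 6.4 and 24.2 CPM. All 4 S-PRT libraries and F-PRT 2 and 3 were below the NR range, and F-PRT 4 was above it. The S-PRT difference of -1.50 ± 0.46 (SE) missed the threshold (edgeR adjusted p = 0.12), but with replicate number as a block it fell by 1.58 (adjusted p = 0.0048). For F-PRT it was -0.56 ± 0.48 (SE, adjusted p = 0.42) against NR and 0.94 ± 0.49 (SE, adjusted p = 0.36) against S-PRT. Of 14 other imprinted genes none passed after S-PRT and 2 fell after F-PRT, where 8.67% of all genes were called lower. With the length trend removed or scaling by library size alone, 0 genes of both lists were called after F-PRT. Peg13, itself a noncoding RNA, fell by 0.64 and Igf2r, the receptor that clears IGF2, fell by 0.49 on the log2 scale (edgeR adjusted p = 0.0049 and 0.027). With the block, which called 3.33% of all genes lower and 6.42% higher, Mest rose by 1.07 ± 0.16 (SE, adjusted p = 0.0052) and Peg13 fell by 0.31 (adjusted p = 0.026) after S-PRT.

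Both snoRNA hosts of the set rose after F-PRT. Gas5 stood at 23.9, 19.7, 20.7 and 16.3 CPM in NR, at 23.8, 21.4, 28.5 and 23.9 CPM after S-PRT, and at 27.5, 24.7 and 30.6 CPM after F-PRT. All F-PRT libraries were above all NR libraries, by a small margin for F-PRT 3, and all S-PRT libraries were above the NR mean. Gas5 rose after F-PRT by 0.46 ± 0.13 (SE, edgeR adjusted p = 0.031), with 0.28 ± 0.12 (SE, adjusted p = 0.25) after S-PRT. The F-PRT call did not pass without NR 2, NR 3, NR 4, F-PRT 2 or F-PRT 4 (adjusted p between 0.058 and 0.11).

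Snhg1, whose start region carries the longer pyrimidine run shown above, stood at 4.1, 4.04, 4.33 and 3.51 CPM in NR. It stood at 5.31, 4.7, 5.38 and 4.31 CPM after S-PRT and at 6.5, 6.9 and 6.53 CPM after F-PRT. The F-PRT libraries were clear of all others, and S-PRT 4 was the only S-PRT library inside the NR range. Snhg1 rose after F-PRT by 0.73 ± 0.12 (SE, edgeR adjusted p = 0.0065), the largest of the 5 changes, and leaving out any single library of the 11 kept it past the threshold. Its difference was 0.30 ± 0.12 (SE, adjusted p = 0.19) after S-PRT and 0.43 ± 0.12 (SE, adjusted p = 0.18) between F-PRT and S-PRT.

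The wider family of hosts was measured from the same fit. Of 13 tested host genes, Gas5 and Snhg1 among them, none passed after S-PRT (1.29% of all genes) and 5 rose after F-PRT (10.8% of all genes called higher), none falling. The median log2 fold change was 0.30 and 0.53, and all 13 were above 0 after F-PRT. Snhg15 rose by 1.51 ± 0.37 (SE, edgeR adjusted p = 0.018), from 0.948 ± 0.393 to 2.71 ± 0.375 CPM. Snhg5 rose by 0.80 ± 0.16 (SE, adjusted p = 0.011) and Snhg6 by 0.53 ± 0.15 (SE, adjusted p = 0.028). With replicate number as a block, 2 of the 13 rose after S-PRT, against 6.42% of all genes called higher in that fit: Snhg3 by 0.69 ± 0.16 (SE, edgeR adjusted p = 0.029) and Snhg6 by 0.49 ± 0.12 (SE, adjusted p = 0.035). With the trend on gene length removed, 0 of the 13 were called after F-PRT and the median was 0.16, and with scaling by library size alone 0 were called. Gas5 and Snhg1 are short genes (they averaged 573 ± 16 and 726 ± 50 bases in NR, against a median of 2491 bases over genes tested).

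The snoRNAs themselves could not be followed, since 4 of the 15 inside Gas5 and Snhg1 were matched and these held 0 to 1 counts. Of 14 factors of nonsense-mediated decay, the pathway that removes host RNAs, none passed after S-PRT (1.29% of all genes), while after F-PRT 3 rose and 1 fell (median log2 fold change -0.02), against 19.5% of all genes called. With the length trend removed 1 was called, as higher, and with scaling by library size alone 0. The related factors Upf3a and Upf3b rose by 0.68 ± 0.11 and 0.60 ± 0.13 (SE, edgeR adjusted p = 0.0059 and 0.013). The exon junction proteins went opposite ways, Rbm8a rising by 0.51 ± 0.12 (SE, adjusted p = 0.017) and Casc3 falling by 0.28 (adjusted p = 0.034). With the block, Rbm8a rose after S-PRT by 0.25 ± 0.06 (SE, adjusted p = 0.04).

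Further long noncoding RNAs were counted in the same way. Of 13 tested, none passed after S-PRT (1.29% of all genes), and 3 rose after F-PRT with none falling (median log2 fold change 0.12 and 0.48), where 10.8% of all genes were called higher. With the length trend removed 0 were called and the F-PRT median was 0.16, and 0 were called with scaling by library size alone or in TPM. Pvt1, the neighbour of Myc, rose by 1.41 ± 0.33 (SE, edgeR adjusted p = 0.016), from 0.517 ± 0.173 to 1.39 ± 0.283 CPM. The microRNA host Mir99ahg rose by 0.61 ± 0.14 (SE, adjusted p = 0.016) and Dleu2 by 0.50 ± 0.15 (SE, adjusted p = 0.039). Trp53cor1, a p53 target, was at 0.152 ± 0.0249 CPM in NR and 0.578 ± 0.304 CPM in S-PRT, a difference of 1.95 ± 0.48 (SE) that missed the threshold (adjusted p = 0.07).

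The 5 calls after F-PRT depended on how the counts were scaled and on gene length. Over 25 other ways of processing, Snhg1 was called in 19, Malat1 in 16, Gas5 in 12, Meg3 in 11 and Kcnq1ot1 in 11, and each had a log2 fold change above 0 in all 25. The 25 include the replicate block with and without the length trend removed, the former added after seeing the data. None of the 5 was called in either, but replicate numbers do not pair F-PRT with NR. The deposited TPM of Kcnq1ot1 was 0.02 in every NR and S-PRT library and 0.02 to 0.04 in F-PRT. The fits on TPM are therefore too coarse to judge that gene. Scaling by library size alone left 0 of the 5 called. Over all genes, that fit called 69 higher and 65 lower, in place of 1579 and 1262. The log2 fold changes in it were 0.67 for Malat1, 0.69 for Meg3, 0.75 for Kcnq1ot1, 0.54 for Gas5 and 0.78 for Snhg1. Leaving out NR 2, NR 3, NR 4, F-PRT 2 or F-PRT 4 left 2, 1, 1, 2 and 1 called. The share of counts from mitochondrially encoded genes, which enters the library size, was 30.6% to 43.8% in NR and 24.2% to 42.3% in F-PRT (exact permutation p = 0.49, adjusted p = 0.62). With those genes left out and TMM scaling kept, all 5 stayed past the threshold. Malat1 was at 0.55, Meg3 at 0.60, Kcnq1ot1 at 0.65, Gas5 at 0.43 and Snhg1 at 0.71 (edgeR adjusted p = 0.032, 0.04, 0.035, 0.04 and 0.009). The part of the mitochondrial share in the fit by library size alone was not tested. With the length trend removed only Malat1 passed (0.72, edgeR adjusted p = 0.047), while Gas5 went to 0.03 (adjusted p = 0.91) and Snhg1 to 0.34 (adjusted p = 0.16). In the same edgeR fit Kcnq1ot1 went to 0.84 (adjusted p = 0.055) and Meg3 to 0.42 (adjusted p = 0.2). With fragment length as a covariate only Snhg1 passed (0.76, adjusted p = 0.036), and Malat1 went to 0.42 (adjusted p = 0.13).

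**Figure D5:**
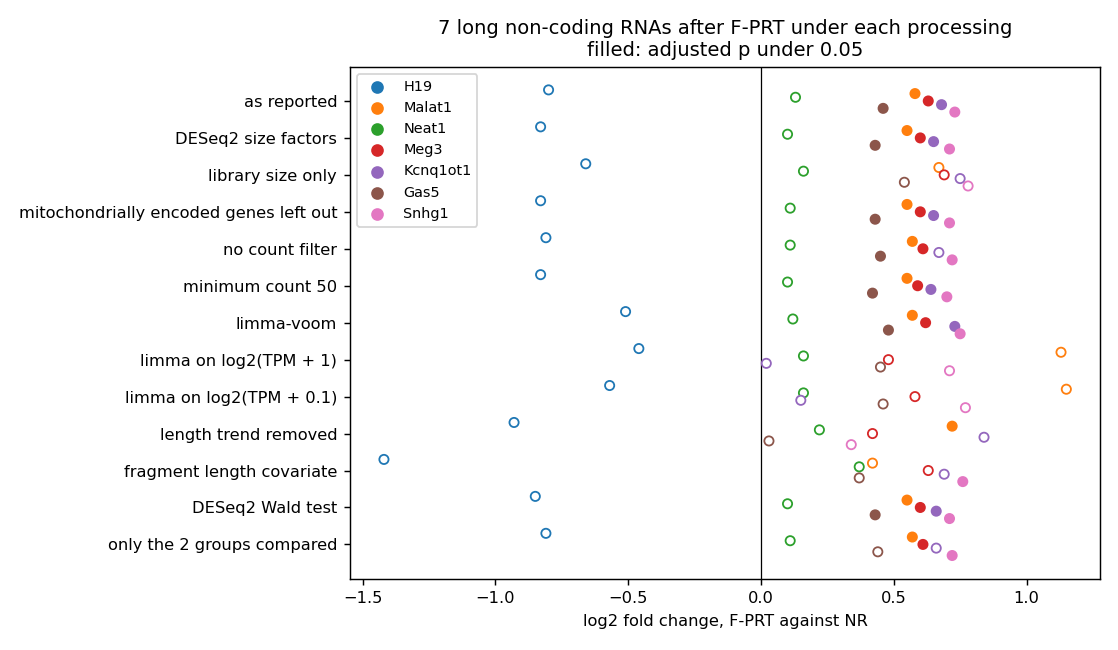
Log2 fold change after F-PRT against NR (horizontal axis) of the 7 long noncoding RNAs as reported and under 12 other ways of processing (rows); filled points have an adjusted p under 0.05. The 5 genes called as reported stay above 0 in every row, and the rows that scale by library size alone or use TPM hold no filled point.

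Levels per length were compared on the deposited TPM, leaving Bc1 aside for the reason given above. In NR the order was Neat1 at 126 ± 33.9 TPM (SD, n = 4), Gas5 at 54.5 ± 4.03 TPM, Malat1 at 40.9 ± 6.43 TPM, Snhg1, H19, Meg3 at 3 ± 0.656 TPM and Kcnq1ot1 at 0.02 TPM. Snhg1 and H19, and H19 and Meg3, overlapped, while the other neighbours in the order did not. In S-PRT the overlapping neighbours were Gas5 with Malat1 and H19 with Meg3. In F-PRT Malat1 stood between Neat1 and Gas5 and overlapped both. By mean CPM in NR, Neat1 ranked 180 and Malat1 458 among 14556 genes, whereas Bc1 ranked 9052 and Kcnq1ot1 11069.

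Across the 11 libraries, which share their groups and their fragment lengths, the genes closest to Bc1 were Rps27l (Pearson r = 0.98), Atp6v0e (0.96), Mif (0.96), Yif1a (0.96) and Slirp (0.96), out of 10638 genes compared on log2 CPM. Rps27l is a ribosomal protein homologue known as a p53 target, Mif is a cytokine, and Slirp binds mitochondrial RNA. These genes are short as well, with mean lengths of 500, 822, 544, 1112 and 512 bases. Among the set itself, Bc1 was nearest to Snhg1 (r = 0.74) and Gas5 (r = 0.67) and farthest from H19 (r = -0.32). Gas5 and Snhg1 had r = 0.81, and Malat1 and Kcnq1ot1 had r = 0.82. The nearest gene was Prss36 for Snhg1 (0.97), Mthfsl for Gas5 (0.94), Nbdy for Malat1 (0.94), Srsf11 for Kcnq1ot1 (0.94), Ccdc134 for Meg3 (0.94), Plvap for H19 (0.87) and Slc7a6 for Neat1 (0.82). These coefficients are descriptions over the same 11 libraries, with no test.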

How the data were processed

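RNA from the heart apex of mice was sequenced in 11 libraries, and per the labels' protocols the RNA integrity numbers were high and a poly(A), directional kit was used. Per the file headers, the authors deposited RSEM gene tables with expected counts, TPM, a level per transcript length, and a length and effective length for each gene. The submitters' processing notes name FastQC, cutadapt, STAR, RSEM and edgeR and the builds GRCm39 and mm10, and a strand setting is not given in the sources at hand. Symbols were matched by gene identifier for 52081 of 55414 genes.

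Expected counts as deposited were rounded and fitted with edgeR 4.0.16 (R 4.3.3): all 11 libraries together, TMM scaling, filterByExpr with a minimum count of 10 and a total of 15, and the quasi-likelihood test with Benjamini-Hochberg adjustment over 14556 genes, called at an adjusted p under 0.05. Log2 CPM used a prior count of 2. Alternatives used DESeq2 1.42.0 and limma 3.58.1, the latter also on log2 of the deposited TPM plus 1 or 0.1. The test script was tested on simulated data. Mean fragment length of a library was the median of length minus effective length plus 1 over long genes. Precision for low genes is limited by 44 to 118 counts per library for Kcnq1ot1.

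The 8 genes and the 11 gene lists and 9 marker lists were chosen with earlier results of these data known. From each list at most 4 called genes, those with the smallest p, are named, or else at most 2 with the smallest p; genes given only where the block changed a call were named after their values were seen. Likeness was taken over tested genes averaging 1 or more in log2 CPM.

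Same-numbered NR and S-PRT libraries deviated together from their group means (correlations of 0.27, 0.28, 0.36 and 0.18 over 11107 genes). Replicate numbers were taken to pair these 2 groups, from the data and the numbers in the labels. S-PRT 1 and S-PRT 4 correlated more with a differently numbered NR library (0.44 with NR 2 and 0.37 with NR 3). S-PRT 3 was at 0.35 with NR 4 and S-PRT 2 at 0.17 with NR 1, and the remaining differently numbered pairs were negative. The correlations thus do not single out the same-numbered pairs, and the pairing is not certain. With the block, 1371 genes were called for S-PRT against NR (903 higher, 468 lower) in place of 188 (127 higher, 61 lower), and 0 of the 7 long noncoding RNAs in both fits. No 2 libraries of a group agreed within sampling noise.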

Additional observations from a re-analysis of the deposited data

Results flagged for a closer look

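Of 28 checks for a library far from the others of its group (level and assigned length of each gene, in the groups of 4), 3 found 1, and chance alone gives about 1 in 20. Meg3 in NR 2 stood at 3.48 CPM, with the other NR libraries at 4.06 to 4.14 CPM. Neat1 in S-PRT 2 had an assigned length of 3420 bases, with the others at 3394 to 3396 bases. Snhg1 in S-PRT 2 had an assigned length of 722 bases, with the others at 702 to 705 bases. S-PRT 2 is also the library with the longest fragments, at 235.8 bases, and the part of that in its assigned lengths was not tested.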

How the results depend on the processing

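For each change in the counts of calls below the cause was not tested. For S-PRT against NR (188 genes called), the count was 14 with library size only (11 higher and 3 lower, against 127 and 61), 605 with no count filter, 2 and 3 on log2(TPM + 1) and log2(TPM + 0.1), 107 with the length trend removed, 5 with the fragment length covariate, 697 with DESeq2's Wald test, 557 with only the 2 groups in the fit, 1371 with the replicate block, 937 with the block and the length trend removed (added after seeing the data), and 26 to 444 when 1 library was left out (31, 44, 28 and 26 without NR 1 to 4, 28 and 116 without S-PRT 3 and 4, 286 and 444 without F-PRT 3 and 4). In each of these, 0 of the 7 long noncoding RNAs were called. For F-PRT against NR (2841 genes, 5 of the 7), library size only gave 134 genes and 0 of the 7, log2(TPM + 1) 71 and 0, log2(TPM + 0.1) 74 and 0, the length trend removed 323 and 1, the fragment length covariate 503 and 1, only the 2 groups 2060 and 3, the replicate block 29 and 0, the block with the length trend removed 56 and 0, and leaving out 1 library 1382 to 3784 and 1 to 5 (1408, 1651, 1695 and 1655 genes without NR 1 to 4, 1773 and 1382 without F-PRT 2 and 4). Same-numbered F-PRT libraries correlated with NR at -0.15, -0.45 and 0.23 and with S-PRT at -0.36, -0.39 and -0.16, so the numbers do not pair F-PRT with either group. For F-PRT against S-PRT (0 genes), DESeq2 size factors gave 3, leaving out mitochondrially encoded genes 3, no count filter 71, log2(TPM + 1) 9, log2(TPM + 0.1) 4, DESeq2's Wald test 167, the replicate block 0, and leaving out 1 library 0 to 103, the latter without F-PRT 3. None of the 8 genes was called in any of them, but DESeq2's Wald test gave Meg3, Kcnq1ot1 and Snhg1 no adjusted p and so did not judge them. Library size scaling moved the median of all genes to -0.14, 0.07 and 0.19 in the 3 comparisons, in that order. The Bc1 difference from NR ran from 1.61 to 2.62 after S-PRT and from 1.67 to 2.38 after F-PRT. The block changed no call among the 7 long noncoding RNAs in S-PRT against NR.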
